A study of Nematostella vectensis and Apis mellifera and Strongylocentrotus purpuratus with 22 samples.

Results

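CDC5L of sea anemone, RPS18 of honey bee, SP-ZW10 of sea urchin and ZW10 of sea squirt are 4 genes that the study displayed as housekeeping genes, and their CpGs were followed from gametes to early embryos. The members are the CpGs between the printed coordinates of each gene that had at least 5 reads in at least 1 sample. They are 1130 of 36114963 such CpGs in the whole series, with 354 in CDC5L, 79 in RPS18, 392 in SP-ZW10 and 305 in ZW10. The genes were found by coordinates alone, because the methylation calls carry no gene names, and no annotation of these assemblies was used here. Exons, introns and start sites are therefore not given.

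Housekeeping genes are active in nearly every cell. CDC5L is a component of the spliceosome, which removes introns from pre-mRNA. RPS18 is a protein of the small ribosomal subunit. ZW10 was described first in fly and belongs to a complex at the kinetochore that takes part in the spindle checkpoint, and it also acts in tethering vesicles between the endoplasmic reticulum and the Golgi. In invertebrates, DNA methylation is mosaic. It lies mainly on the bodies of active genes, while their promoters and most of the rest of the genome carry little.

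Whole-genome bisulfite sequencing (WGBS) reads an unmethylated cytosine as thymine and a methylated cytosine as cytosine. The methylation level of a CpG is the share of its reads with cytosine, from 0 to 1. Sea anemone was sampled from Florida (FL) as sperm, oocyte, cleavage, blastula and gastrula, and from Massachusetts (MA) as sperm, cleavage and blastula. Honey bee was sampled as sperm, oocyte, worker blastoderm, worker gastrula, drone blastoderm and drone gastrula, where workers are females from fertilised eggs and drones are males from unfertilised eggs. Sea urchin was sampled as sperm, oocyte, cleavage and blastula, and sea squirt as sperm, oocyte, cleavage and gastrula. No sample had a genetic or drug treatment, and the embryos are whole embryos of mixed cells.

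Each of the 22 samples holds 1 set of counts, in which the replicates named by the labels are pooled, so no difference between stages has a replicate check. The sum of reads over CpGs was from 69290307 to 389977166 in the samples of sea anemone, from 47356912 to 601450469 in honey bee, from 181029899 to 453262146 in sea urchin and from 167743373 to 347709270 in sea squirt. Honey bee oocyte was the shallowest, with a median of 5 reads per CpG. Intervals are 95% binomial intervals and cover counting error only. The intervals of means and the tests of windows count a read once for each CpG it covers, as if CpGs were independent. Where CpGs share reads, the intervals are too narrow and the p-values too small. Every test compares the reads of a pair of libraries, and does not compare conditions.

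All 4 genes were mosaic themselves. Stretches of CpGs near 0 stood beside a methylated body. Outside the stretches the mean level lay between 0.725 and 0.853 in CDC5L, between 0.78 and 0.812 in SP-ZW10 and between 0.817 and 0.892 in ZW10. RPS18 was lower there, between 0.527 and 0.617. The samples did not cover the same CpGs. In CDC5L the Florida samples lay between 0.725 and 0.813 over 285 CpGs. The values above this were MA cleavage (0.832 over 156 CpGs) and MA blastula (0.853 over 167 CpGs). The mean level of the gene was far above the mean over all CpGs of the genome, and as a description this held in every sample. CDC5L lay between 0.597 and 0.678 where the sea anemone genome lay between 0.113 and 0.144. RPS18 lay between 0.262 and 0.343 where the honey bee genome lay between 0.0116 and 0.015. SP-ZW10 lay between 0.548 and 0.598 against 0.24 to 0.261 for the genome of sea urchin. ZW10 lay between 0.643 and 0.715 against 0.263 to 0.29 for the genome of sea squirt. RPS18 was the lowest of the 4, and its unmethylated stretch held 54.4% of its CpGs, while the stretches of CDC5L, SP-ZW10 and ZW10 held 18.9%, 25.3% and 25.9%.

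The unmethylated stretches were defined as runs of at least 5 CpGs over at least 500 bp in which every CpG was below 0.2 in every sample with at least 5 reads. The stretches of a gene, pooled, held 25.7, 19.3, 27.4 and 38.4 CpGs per 1000 bp in CDC5L, RPS18, SP-ZW10 and ZW10, and the remainder of each gene held 17.5, 10.7, 12.3 and 22.6. In CDC5L the left pair of stretches held 45.7 and 39.5, while the right one held 12.8, below the remainder of the gene. The low levels were the rule that chose the stretches, and only their place, length and density are new information.

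Many single CpGs kept their class through all stages. Among CpGs with at least 5 reads in every sample of the species, CDC5L had 42 below 0.2 throughout and 80 above 0.8 throughout, of 185. SP-ZW10 had 89 and 96 of 284, and ZW10 had 37 and 106 of 231. RPS18 had 8 and 2 of 20, and the shallow oocyte library set this number of 20. The CpGs that crossed 0.2 or 0.8 between samples numbered 63 in CDC5L, 9 in RPS18, 96 in SP-ZW10 and 73 in ZW10. The median range of a CpG over the samples was 0.143 in CDC5L, 0.193 in RPS18, 0.106 in SP-ZW10 and 0.12 in ZW10. These ranges include counting error, which is large at low depth, and CDC5L in MA cleavage had a median of 9 reads per CpG against 63 in FL blastula.

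CDC5L was covered from CpG 354377 to CpG 373383 of a scaffold of assembly ASM20922v1, a span of 19007 bp. The body between 358001 and 369000 was close to fully methylated in every sample. Its 1000-bp windows lay between 0.844 and 1 in all samples that gave a level. The window with the highest mean, 360001 to 361000, ranged from 0.932 to 0.98 over the 8 samples. The lowest was 372001 to 373000 at the right end, which was at 0 in the 5 samples that gave a level.

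**Figure D1:**
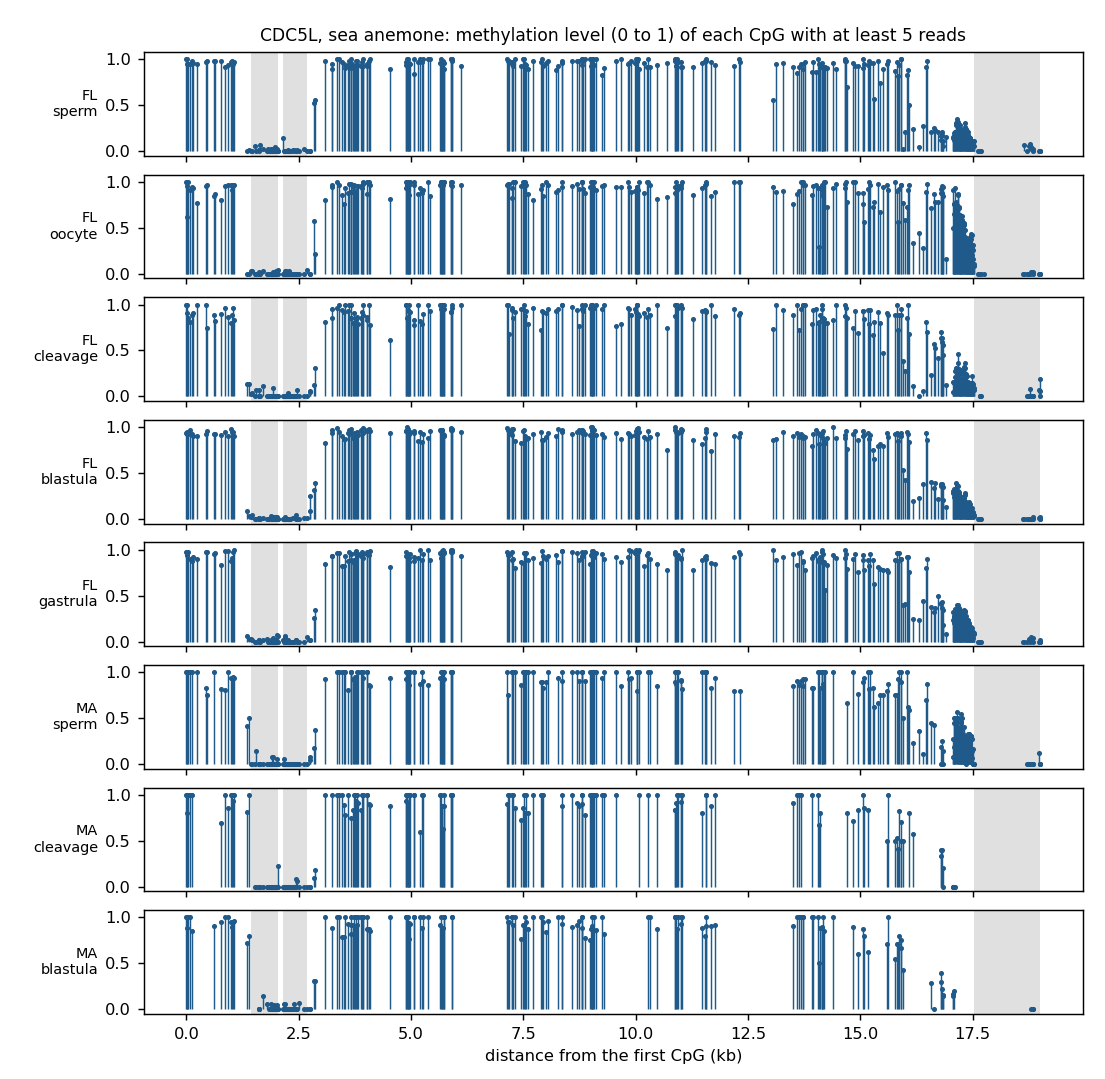
Methylation level from 0 to 1 (vertical axis) of each CpG of CDC5L with at least 5 reads, against its distance in kb from the first CpG, in 5 Florida (FL) and 3 Massachusetts (MA) samples. Each line and point is 1 CpG and grey marks the 3 unmethylated stretches. The methylated body lies between the left stretches and the right one, MA cleavage gives no level in the right stretch, and FL oocyte stands higher than the other samples from 17.1 to 17.5 kb.

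CDC5L had unmethylated stretches near its left end and at its right end. The left one was split in the count into 355817 to 356407, with 27 CpGs over 591 bp, and 356531 to 357062, with 21 CpGs over 532 bp. The split rests on CpG 356425 alone, which had a level of 0.222 from 9 reads in MA cleavage and at most 0.0612 in the other 7 samples. Pooled over the reads of the first of these stretches, 1.43% were methylated in FL sperm, 0.672% in FL oocyte, 1.67% in FL cleavage, 0.945% in FL blastula and 1.12% in FL gastrula. In the Massachusetts samples the first stretch had 1.27% in sperm, 0% in cleavage, with a Wilson interval up to 2.05% from 184 reads, and 1.44% in blastula. All 8 samples were low there by the rule that chose the stretch. The 95% Wilson intervals of sperm and oocyte of Florida overlapped (0.907% to 2.25% and 0.326% to 1.38%).

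The left stretch did not sit at the very start of the printed gene. CpG 354377, the first of the gene, was at 1 in FL sperm and FL oocyte, and the window 354001 to 355000 lay between 0.901 and 0.971 over the 8 samples. The nearest CpG with a mean above 0.5 was 355434 on the left, 383 bp from the edge, at 0.829 to 1. On the right it was 357471, 409 bp from the edge, at 0.804 to 1. The third stretch, 371901 to 373383 with 19 CpGs over 1483 bp, reached the end of the printed gene. With a minimum of 1 read it was no longer found as a stretch. Its pooled reads were 2.7% methylated in FL sperm, 1.97% in FL oocyte, 5.17% in FL cleavage, 1.18% in FL blastula and 2.88% in FL gastrula. MA cleavage had no CpG with 5 reads there, and MA blastula had 3 with 17 reads in all.

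The left edge of CDC5L differed between the Florida and the Massachusetts samples. A pair of CpGs, 355734 and 355764, lies within 200 bp outside the first stretch. Their mean level was 0.00893 in FL sperm, 0 in FL oocyte, 0.136 in FL cleavage, 0.0627 in FL blastula and 0.0443 in FL gastrula. It was 0.456 in MA sperm, 0.909 in MA cleavage and 0.764 in MA blastula. The lowest Massachusetts value, 0.456, was above the highest Florida value, 0.136. The share of CpGs of the genome that separate the populations in this way was not counted. In FL sperm alone the stretch began at 355734. The edge was thus set by samples with higher levels at these CpGs, and some difference between samples was built into their choice.

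Both CpGs passed the test in all 3 comparisons of the populations. A CpG was called at an adjusted p below 0.05 (two-sided Fisher exact test, Benjamini-Hochberg over all CpGs of the genome) and a difference of at least 0.2. At 355734, 0 of 63 reads were methylated in FL sperm and 7 of 17 in MA sperm (exact test, adjusted p = 8.83e-04), 5 of 36 and 9 of 11 in cleavage (exact test, adjusted p = 0.00527), and 7 of 78 and 8 of 11 in blastula (exact test, adjusted p = 5.54e-04). At 355764, the counts were 1 of 56 and 6 of 12 in sperm (exact test, adjusted p = 0.00485), 4 of 30 and 8 of 8 in cleavage (exact test, adjusted p = 0.00125), and 3 of 84 and 8 of 10 in blastula (exact test, adjusted p = 5.36e-06). In the genome, 2.11% of CpGs were called between FL and MA sperm, with 1.81% higher in MA. In cleavage 2.16% were called, with 1.99% higher and 0.171% lower in MA, and in blastula 4.07%, with 3.6% higher in MA. In CDC5L the called CpGs were 3 of 306, 3 of 200 and 2 of 211, so their number in the gene was close to or below that of the genome. The same pair was called at each stage. The others were 370323 in sperm, higher in MA, and 370196 in cleavage, lower in MA, both named after their values were seen. The Massachusetts values of the pair rest on 8 to 17 reads per CpG.

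Between stages, the body of CDC5L moved little and its right end moved much. Windows of 1000 bp were called with the same thresholds from reads summed over at least 3 CpGs, adjusted over all windows of the genome. Over the 15 windows above 0.5, the mean was 0.911 in FL sperm and 0.898 in FL oocyte, with 12 of 15 lower in oocyte. The same difference over such windows of the whole genome was larger, at -0.0304 against -0.013, and 74.2% of them were lower in oocyte.

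A single window of 19, 371001 to 372000, was called between FL sperm and FL oocyte, where 1.77% of windows were called in the genome. Its level over 65 CpGs was 0.177 in FL sperm, 0.528 in FL oocyte, 0.236 in FL cleavage, 0.211 in FL blastula and 0.25 in FL gastrula. FL oocyte was the only Florida sample above 0.25. It differed from sperm (Fisher exact test, adjusted p = 5.09e-194) and from cleavage (exact test, adjusted p = 7.03e-116), where 1 of 19 windows was called against 1.2% in the genome. Reads shared by several of the 65 CpGs count once at each, so these p-values overstate the evidence. FL sperm and FL cleavage had no called window in CDC5L, where 1.22% were called in the genome, and neither had FL cleavage and FL blastula (0.214%) or FL blastula and FL gastrula (0.0316%). No window was called between MA sperm and MA cleavage (3.17% in the genome) or between MA cleavage and MA blastula (0.565%). Massachusetts oocytes and gastrulae were not analysed here.

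Single CpGs showed the same place. Between FL sperm and FL oocyte, 44 of 350 CpGs were called, against 1.34% in the genome. Of these, 42 were higher in oocyte, against 0.554% in the genome, and 2 were lower, against 0.783%. Of the 44, 28 lay in the run of closely spaced CpGs described next, 13 in the 1500 bp before it and 3 elsewhere. Close CpGs usually share reads, so calls in and near the run are not independent of each other or of the window call. The largest increases were at 371226, with 2 of 37 reads methylated in sperm and 18 of 19 in oocyte, at 371442 with a difference of 0.766 and at 371173 with a difference of 0.756. The called decreases were 368462, from 20 of 21 reads to 9 of 31, and 369460, from 38 of 40 to 19 of 34. From FL oocyte to FL cleavage 20 CpGs were called, against 0.168% in the genome. Of these 19 were lower in cleavage, against 0.0813% in the genome, and all 19 lay in the run. The other, 368462, was higher in cleavage, against 0.087%. From FL sperm to FL cleavage 3 CpGs were called, against 0.337% in the genome and 0.137% called higher in cleavage. All 3 were higher in cleavage and lay in the 1500 bp before the run. No CpG of CDC5L was called from FL cleavage to FL blastula (0.0077% in the genome), from FL blastula to FL gastrula (0%), from MA sperm to MA cleavage (0.00445%) or from MA cleavage to MA blastula (0%).

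**Figure D2:**
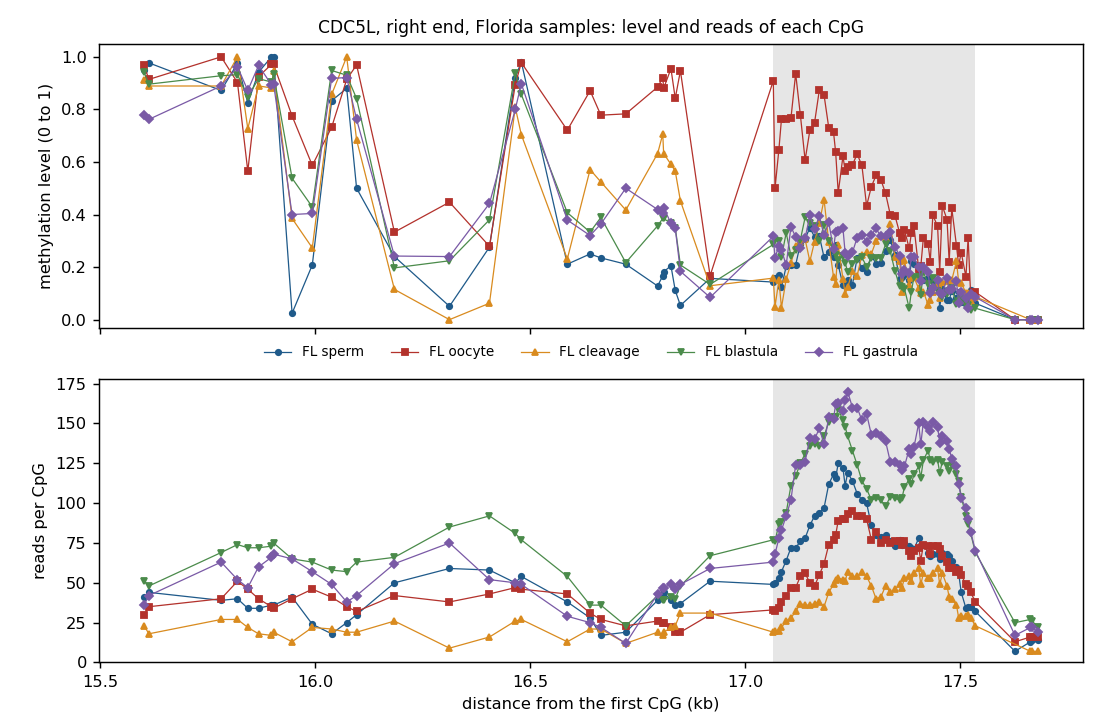
Methylation level from 0 to 1 (top) and reads per CpG (bottom) against distance in kb from the first CpG at the right end of CDC5L, in the 5 Florida samples. Each point is 1 CpG and grey marks the run of closely spaced CpGs. FL oocyte stands above the other samples before the run and over its first part, and the reads rise over the run in all 5 samples.

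Most CpGs of the called window are unusually close together, and their depth was unusual too. A run from 371442 to 371912 holds 57 CpGs in 471 bp, which is 121 CpGs per 1000 bp against 16 in the remainder of the gene. In this run 41 CpGs have another CpG exactly 11 bp on. The median reads per CpG in the run and in the remainder of the gene were 73 and 44 in FL sperm, 68 and 34 in FL oocyte, 46 and 19 in FL cleavage, 117 and 59 in FL blastula and 137 and 49 in FL gastrula. In MA sperm they were 12 and 10, while in MA cleavage and MA blastula the run had a median of 0 reads against 7 and 9. The higher depth was present in all 5 Florida samples. The part of this depth in the result was not tested.

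The rise in oocyte was larger in the CpGs just before the run, where the median reads were 38 in FL sperm and 25 in FL oocyte. Over the 10 CpGs of the window before the run, the level was 0.17 in FL sperm (interval 0.126 to 0.214), 0.803 in FL oocyte (0.757 to 0.848), 0.522 in FL cleavage (0.455 to 0.588), 0.312 in FL blastula (0.266 to 0.359) and 0.342 in FL gastrula (0.289 to 0.394). Cleavage stood between oocyte and the later stages, and none of the later stages was as low as sperm. With the run left out, which is a setting chosen after seeing the data, the window was called between FL sperm and FL oocyte (exact test, adjusted p = 1.37e-52), FL oocyte and FL cleavage (exact test, adjusted p = 9.51e-09), FL sperm and FL cleavage (exact test, adjusted p = 2.65e-15) and FL cleavage and FL blastula (exact test, adjusted p = 1.30e-04). In the run itself the level was 0.178, 0.478, 0.184, 0.192 and 0.233 in the same order. There the cleavage level was near that of sperm, unlike in the 10 CpGs before it.

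The Massachusetts samples gave fewer CpGs at this place. Before the run the level was 0.167 in MA sperm over 6 CpGs, 0.267 in MA cleavage over 5 CpGs and 0.202 in MA blastula over 6 CpGs. The window was called between FL and MA cleavage, as 1 of 16 windows where 7.47% were called in the genome, with 0.342 and 0.121 over 11 CpGs (exact test, adjusted p = 0.0033). With a minimum of 10 reads 5 CpGs remained, the difference was -0.222 and the call was lost (exact test, adjusted p = 0.0698). With the run left out it was 0.597 and 0.267 over 5 CpGs (exact test, adjusted p = 0.00421). It was not called between FL and MA sperm or FL and MA blastula, where 4.9% and 7.3% were called in the genome.

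The mean of the whole gene moved with the run. Over all 350 CpGs in both libraries, CDC5L was 0.608 in FL sperm and 0.664 in FL oocyte, a difference of 0.0561 (interval 0.0493 to 0.063). Without the run the levels were 0.688 and 0.694, and over the 185 CpGs with reads in all 8 samples, which hold at most 3 CpGs of the run, they were 0.678 and 0.688. From FL oocyte to FL cleavage the mean level of the gene was 0.668 and then 0.597. The intervals of the differences from FL cleavage to FL blastula and from FL blastula to FL gastrula included 0.

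RPS18 was covered from CpG 735155 to CpG 740753 of chromosome 14 of the honey bee assembly, a span of 5599 bp. The left part was unmethylated and the right part was methylated at most of its CpGs. Its lowest window, 735001 to 736000, lay between 0 and 0.0142 over the 6 samples. Its highest, 738001 to 739000, lay between 0.715 and 0.816 in the 5 samples other than oocyte. Above 0.8 lay 15% to 24.4% of the CpGs of RPS18, where 0.259% to 0.574% did in the genome.

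**Figure D3:**
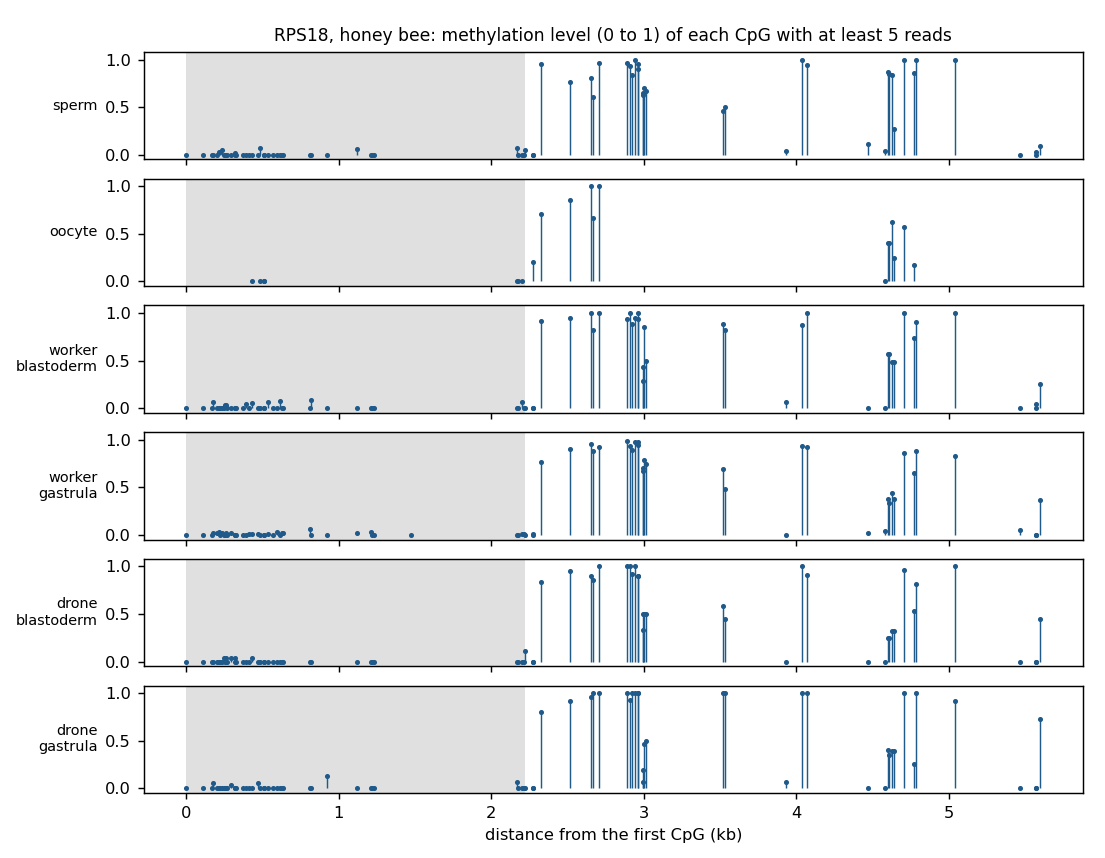
Methylation level from 0 to 1 (vertical axis) of each CpG of RPS18 with at least 5 reads, against its distance in kb from the first CpG, in 6 honey bee samples. Each line and point is 1 CpG and grey marks the unmethylated stretch. The CpGs past the stretch are methylated at most places, and oocyte shows 20 CpGs where the other samples show 77 to 79.

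The unmethylated stretch of RPS18 ran from its first CpG to 737377, with 43 CpGs over 2223 bp. This is 39.7% of the span, against 13.2% to 17.1% in the other genes. Pooled over its reads, 0.868% were methylated in sperm. Workers had 1.18% in blastoderm and 0.811% in gastrula, and drones had 0.826% and 0.718%. In oocyte 0 of 41 reads were, with a Wilson interval up to 8.57%. The first CpG with a mean above 0.5, at 737477, followed 100 bp past the edge and lay between 0.714 and 0.952. Between them, CpG 737426 was at 0.2 from 5 reads in oocyte and at most 0.0125 in the other samples, so that the edge rests on this CpG. In sperm alone the stretch ended at 737429.

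Within the methylated part, unmethylated CpGs stood among methylated ones in every sample. Outside the stretch, 7 CpGs were below 0.2 in each sample with a level. CpG 739086 lay between 0 and 0.0667, while its neighbours 739190 and 739225 lay between 0.875 and 1. CpG 739734 lay between 0 and 0.04 in all 6 samples, at 8 to 75 reads. Its neighbour 739758, which is 24 bp on, was at 0.865 in sperm and 0.4 in oocyte, at 0.565 and 0.378 in blastoderm and gastrula of workers, and at 0.25 and 0.4 in those of drones. Sperm stood above every other sample at 739758, and the same held at 739761, with 0.846 against 0.25 to 0.565, and at 739783, with 0.841 against 0.321 to 0.625. At 739794, which is 11 bp on from 739783, sperm was at 0.267, near oocyte at 0.25 and below the 4 embryo samples at 0.321 to 0.481.

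These CpGs lie in the window 739001 to 740000, the only one of 3 called between sperm and oocyte, where 0.119% were called in the genome. Over the 7 CpGs with reads in both, the level was 0.674 in sperm and 0.345 in oocyte (Fisher exact test, adjusted p = 0.00439). The oocyte value rests on 57 reads, and with the sperm reads thinned to the depth of the oocyte library 3 CpGs remained, the difference was -0.385 and the adjusted p of the exact test was 1. Over all CpGs of this window the levels were 0.651 in sperm, 0.557 and 0.486 in blastoderm and gastrula of workers, and 0.446 and 0.487 in those of drones. The intervals of sperm (0.614 to 0.688) and of worker blastoderm (0.504 to 0.609) did not overlap, and the window was not called in that pair.

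The window 740001 to 741000 was called between sperm and worker blastoderm, as 1 of 6 windows where 0.136% were called in the genome, with 0.31 and 0.543 over 9 CpGs (exact test, adjusted p = 5.37e-07). The window runs past the right end of the gene, and 4 of its 9 CpGs lie outside. Over the 5 CpGs inside RPS18 the levels were 0.223 (interval 0.18 to 0.267) and 0.259 (0.187 to 0.33), which overlap. The larger difference thus lies in the 4 CpGs past the gene. No window of RPS18 was called between oocyte and worker blastoderm (0.0171% in the genome), oocyte and drone blastoderm (0.024%), blastoderm and gastrula of workers (0.0178%) or drones (0.0299%), or workers and drones at blastoderm (0.00326%) or gastrula (0.227%). The last CpG of RPS18, 740753, varied most among the 5, with 0.0857 in sperm, 0.25 and 0.363 in blastoderm and gastrula of workers, and 0.444 and 0.733 in those of drones. Drone was above worker at both stages, and sperm was the lowest.

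A single CpG of RPS18 was called in any pair. This was 738149, with 50 of 75 reads methylated in worker gastrula and 1 of 16 in drone gastrula (exact test, adjusted p = 0.015), where 0.0705% of CpGs were called in the genome and 0.0264% were called lower in drone. It was named after its values were seen. Sperm was at 0.652, worker blastoderm at 0.429 and drone blastoderm at 0.333 there. The neighbour 738146, 3 bp before it, was at 0.704 in worker gastrula and 0.188 in drone gastrula and was not called. CpGs this close usually share reads. No CpG of RPS18 was called between sperm and oocyte (0.000245% in the genome), sperm and worker blastoderm (0.023%), oocyte and worker blastoderm (0%), oocyte and drone blastoderm (2.04e-05%), blastoderm and gastrula of workers (0.0029%) or drones (0.000145%), or worker and drone blastoderm (0%).

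The mean of RPS18 was 0.289 in sperm, 0.291 and 0.274 in blastoderm and gastrula of workers, and 0.262 and 0.278 in those of drones. Between worker and drone blastoderm the difference was -0.0318 (interval -0.0582 to -0.00543), with 28 CpGs lower and 11 higher in drone. Between worker and drone gastrula the interval, from -0.0192 to 0.0188, included 0. The oocyte could be compared over 20 CpGs only, where it was at 0.343 and sperm at 0.447, a difference of -0.104 (interval -0.178 to -0.0306). This value depends on the depth, and was -0.0209 with a minimum of 1 read, -0.456 with a minimum of 10 reads and -0.385 with reads thinned.

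SP-ZW10 was covered from CpG 10631 to CpG 39764 of a scaffold of assembly Spur_3.1, a span of 29134 bp and the longest of the 4. Its left part was unmethylated and the remainder was methylated, with gaps of low levels toward the right end. The lowest window, 12001 to 13000, lay between 0.00238 and 0.00849 over the 4 samples. The highest, 15001 to 16000, lay between 0.906 and 0.961. Above 0.8 lay 47.6% to 53.1% of its CpGs, where 16.1% to 21.7% did in the genome.

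**Figure D4:**
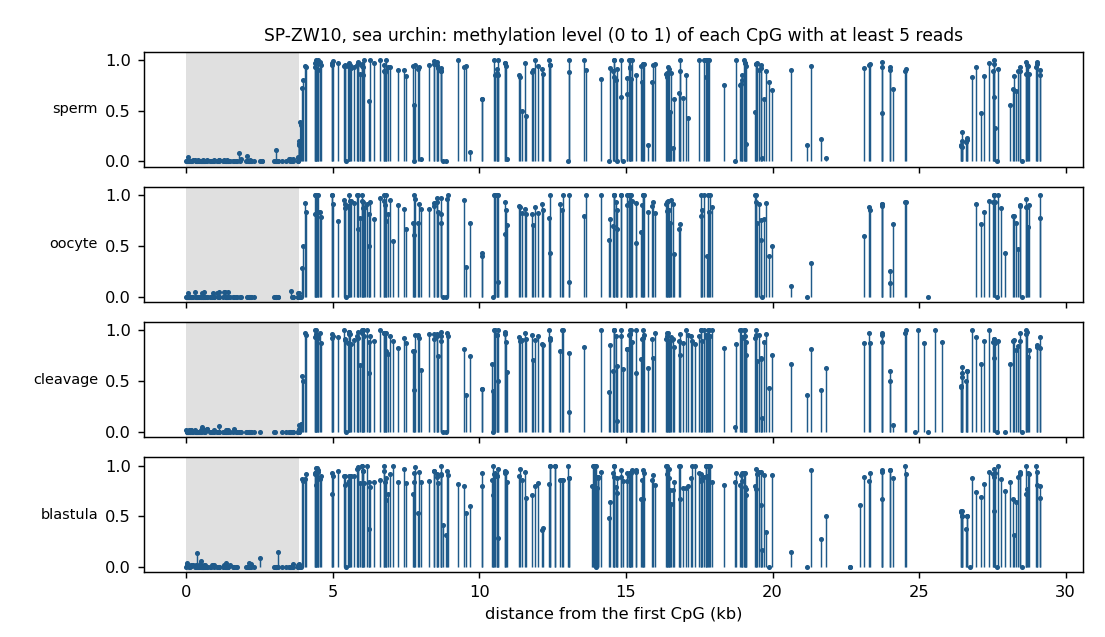
Methylation level from 0 to 1 (vertical axis) of each CpG of SP-ZW10 with at least 5 reads, against its distance in kb from the first CpG, in 4 sea urchin samples. Each line and point is 1 CpG and grey marks the unmethylated stretch. The methylated body begins to the right of the stretch, and single CpGs of the body stand at 0 in some samples and near 1 in others.

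The unmethylated stretch of SP-ZW10 ran from the first CpG to 14468, over 3838 bp with 104 CpGs that gave a level, and was the longest of the 4 genes. Pooled over its reads, 0.708% were methylated in sperm, 0.658% in oocyte, 0.747% in cleavage and 0.871% in blastula, and the Wilson intervals of all 4 overlapped. The level then passed 0.5 on average at 14584, which is 116 bp past the edge.

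The CpGs just past this edge were highest in sperm. Over the 5 CpGs within 200 bp of the edge, the level was 0.493 in sperm (interval 0.412 to 0.574), 0.156 in oocyte (0.0982 to 0.214), 0.243 in cleavage (0.195 to 0.29) and 0.35 in blastula (0.31 to 0.39). At 14521, 10 of 26 reads were methylated in sperm and 0 of 25 in oocyte (exact test, adjusted p = 0.0224). At 14536 the counts were 9 of 25 and 0 of 28 (exact test, adjusted p = 0.0168). Cleavage was at 0.0571 and 0.0732 and blastula at 0 at these CpGs, so sperm was the highest there. Neither CpG was called between sperm and cleavage, and sperm was not tested against blastula. At 14584, further on, the order was different, with 0.72 in sperm, 0.28 in oocyte, 0.552 in cleavage and 0.868 in blastula.

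In the body of SP-ZW10 many single CpGs differed between libraries in both directions. Between sperm and oocyte 25 of 296 were called, against 3.71% in the genome, with 12 higher and 13 lower in oocyte (1.18% and 2.53% in the genome). Between sperm and cleavage 23 of 331 were called, against 2.93% in the genome, with 15 higher and 8 lower in cleavage (1.54% and 1.38% in the genome). Between oocyte and cleavage 2 of 306 were called, 19311 and 21489, against 0.724%, and both were higher in cleavage (0.647% in the genome). Between cleavage and blastula 20 of 346 were called, against 2.33%, with 12 higher and 8 lower in blastula (1.09% and 1.23% in the genome). The share of called CpGs was thus above that of the genome in 3 of the 4 pairs, and the difference of shares was not tested. The shares were not matched for level. In SP-ZW10, 30.1% to 37.2% of CpGs were below 0.2, against 68.3% to 69% in the genome. The median reads per CpG were 37 in sperm, 18 in oocyte, 32 in cleavage and 29 in blastula.

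The largest increase from sperm to oocyte was at 18627, with 2 of 73 reads methylated in sperm and 25 of 29 in oocyte (exact test, adjusted p = 1.36e-13). Cleavage stood at 0.613 there and blastula at 0.837, so sperm was the lowest. At 27238 the counts were 6 of 44 and 20 of 22, and at 21573 they were 1 of 46 and 17 of 24. The largest decreases were at 34628, from 43 of 46 reads to 2 of 15, at 31274, from 9 of 10 to 1 of 10, and at 23671, from 15 of 17 to 1 of 7. At 34628 cleavage was at 0.6 and blastula at 0.958, so oocyte was the lowest and blastula was as high as sperm.

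Some called CpGs stood alone among their neighbours. Of the 15 called CpGs between sperm and oocyte with a tested neighbour within 200 bp on each side, 5 had neighbours that differed by less than 0.2 on both sides. This is 33.3%, against 25.1% of such called CpGs in the genome. The order was the other way from sperm to cleavage, with 35.7% against 37.9%, and from cleavage to blastula, with 27.3% against 36.5%. From oocyte to cleavage 1 called CpG had such neighbours, and it stood alone. Apart from the called CpGs, 5 CpGs outside the stretch were below 0.2 in every sample that gave a level. CpG 16069 was at 0 in sperm, oocyte, cleavage and blastula, from 12 to 29 reads each, inside a window that lay between 0.84 and 0.887.

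Called windows in SP-ZW10 all lay in the body. Between sperm and oocyte 2 of 25 windows were called, against 8.32% in the genome. Window 23001 to 24000 was at 0.957 and 0.67 over 5 CpGs (exact test, adjusted p = 3.30e-04). It was not called with a minimum of 1 read, where the difference was -0.156, nor with the reads of sperm thinned to the depth of oocyte, where it was -0.198 (exact test, adjusted p = 0.274). Window 31001 to 32000 was at 0.666 in sperm, 0.144 in oocyte, 0.616 in cleavage and 0.366 in blastula over 3 CpGs. It was called between sperm and oocyte (exact test, adjusted p = 8.65e-06) and between oocyte and cleavage (exact test, adjusted p = 1.08e-04), as 1 of 24 windows where 5.08% were called in the genome. Oocyte had 28 reads there.

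The other called windows were not the same ones. Between sperm and cleavage 1 of 25 was called, against 3.72% in the genome. It was 37001 to 38000, with 0.433 and 0.682 over 13 CpGs (exact test, adjusted p = 2.64e-04). In this window 8 CpGs, from 37065 to 37273, lay between 0.143 and 0.286 in sperm, and between 0.444 and 0.636 in cleavage. Blastula was between 0.375 and 0.556 at the same CpGs, and oocyte had too few reads to give a level. Between cleavage and blastula 1 of 25 was called, against 3.91% in the genome. It was 34001 to 35000, with 0.664 and 0.894 over 6 CpGs (exact test, adjusted p = 0.0341). With the reads thinned to equal depth the difference was 0.237 and the adjusted p of the exact test was 0.068.

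The mean of SP-ZW10 stayed within a narrow range. Over the 284 CpGs with reads in all 4 samples it was 0.576 in sperm, 0.554 in oocyte, 0.581 in cleavage and 0.57 in blastula. Over the 296 CpGs of sperm and oocyte the difference was -0.0196 (interval -0.0325 to -0.00659), and with a minimum of 1 read it turned to 0.00764. The mean difference over all CpGs of the genome in this pair was -0.0197. Coverage also differed, as 19 CpGs gave a level in blastula only, against 2 in sperm only, 1 in oocyte only and 5 in cleavage only.

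ZW10 was covered from CpG 1105811 to CpG 1117878 of a scaffold of assembly CSAV2.0, a span of 12068 bp. It was the only gene whose single unmethylated stretch had methylated CpGs on both sides within the printed coordinates. The lowest window, 1108001 to 1109000, lay between 0.00556 and 0.0119 over the 4 samples. The highest, 1106001 to 1107000, lay to the left of the stretch, between 0.919 and 0.944. To the right of it, from 1110001 on, the windows lay between 0.765 and 0.958. Above 0.8 lay 50.2% to 62.7% of its CpGs, where 18.2% to 24.1% did in the genome.

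**Figure D5:**
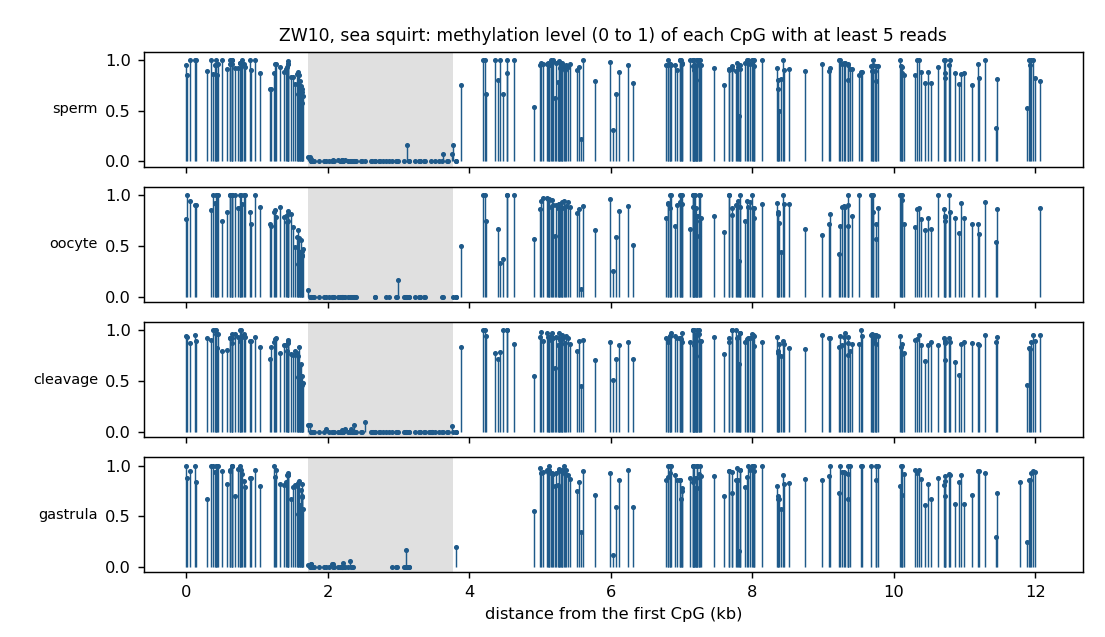
Methylation level from 0 to 1 (vertical axis) of each CpG of ZW10 with at least 5 reads, against its distance in kb from the first CpG, in 4 sea squirt samples. Each line and point is 1 CpG and grey marks the unmethylated stretch. The level falls over the CpGs to the left of the stretch in all 4 samples, and most deeply in oocyte.

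The unmethylated stretch of ZW10 ran from 1107527 to 1109585, with 79 CpGs over 2059 bp. Pooled over its reads, 0.845% were methylated in sperm, 0.369% in oocyte, 0.7% in cleavage and 0.914% in gastrula, and the Wilson intervals overlapped. The methylated CpGs came close to it on both sides. On the left, 1107456 lay 71 bp from the edge and between 0.468 and 0.647. On the right, 1109690 lay 105 bp from the edge and between 0.5 and 0.833, from few reads. Gastrula gave a level at 41 of the 79 CpGs and cleavage at all 79.

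The left edge of ZW10 differed between sperm and oocyte. Over the 12 CpGs within 200 bp to the left of the stretch, the level was 0.744 in sperm (interval 0.717 to 0.771), 0.484 in oocyte (0.446 to 0.522), 0.625 in cleavage (0.598 to 0.652) and 0.71 in gastrula (0.682 to 0.737). Oocyte was the lowest, and its interval did not overlap that of any other sample. Sperm and gastrula overlapped.

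Of the 268 CpGs of sperm and oocyte, 5 were called, against 0.379% in the genome, and all 5 were lower in oocyte (0.362% in the genome). Of these, 4 lay to the left of the stretch. At 1107241, 86 of 89 reads were methylated in sperm and 35 of 47 in oocyte (exact test, adjusted p = 0.0449). At 1107372 the counts were 82 of 95 and 36 of 61 (exact test, adjusted p = 0.0488), at 1107393 they were 67 of 100 and 19 of 59 (exact test, adjusted p = 0.0135), and at 1107423 they were 67 of 84 and 23 of 52 (exact test, adjusted p = 0.0138). The fifth lay in the body, at 1115041, with 26 of 26 and 5 of 12 (exact test, adjusted p = 0.0216). The 1000-bp window of the left edge, 1107001 to 1108000, was at 0.474 in sperm and 0.367 in oocyte (exact test, adjusted p = 3.27e-12) and was not called, as the difference was under 0.2.

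No 1000-bp window of ZW10 was called in any pair. The shares called in the genome were 1.81% between sperm and oocyte, 0.247% between sperm and cleavage, 0.745% between oocyte and cleavage and 0.37% between cleavage and gastrula. In 500-bp windows, an alternative setting whose genome share is not given here, 1114501 to 1115000 was called. Its level over 4 CpGs was 0.917 in sperm, 0.701 in oocyte, 0.904 in cleavage and 0.905 in gastrula, so oocyte was the lowest. The 1000-bp window around it, 1114001 to 1115000, was at 0.852 in sperm and 0.781 in oocyte over 12 CpGs. No CpG was called between sperm and cleavage, where 0.0663% were called in the genome, or between oocyte and cleavage, where 0.0511% were. Between cleavage and gastrula 2 of 245 were called, against 0.109% in the genome, and both were lower in gastrula (0.0474% in the genome). They were 1111846, from 69 of 136 reads to 10 of 85 (exact test, adjusted p = 3.05e-05), and 1113624, from 26 of 39 to 8 of 50 (exact test, adjusted p = 0.00545), named after their values were seen. Sperm was at 0.306 and 0.444 at these CpGs and oocyte at 0.254 and 0.353, below cleavage and above gastrula.

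The oocyte of sea squirt was also lower than sperm over the body of ZW10. Over the 9 windows above 0.5 the mean was 0.891 in sperm and 0.837 in oocyte, with 8 of 9 lower in oocyte, and 0.891 in cleavage against 0.837 in oocyte, with 8 of 9 higher in cleavage. Such windows of the whole genome were lower in oocyte at 91.3%, with a mean difference of -0.0695 against -0.0548 in ZW10, so the gene did not exceed the genome. Over all 268 CpGs the difference from sperm to oocyte was -0.0606 (interval -0.0757 to -0.0455), and from oocyte to cleavage it was 0.0395 over 271 CpGs (interval 0.0256 to 0.0534). From cleavage to gastrula the interval, from -0.0221 to 0.00404, included 0.

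Summed over the pairs, the window calls were 3 of 175 in CDC5L, where 2.68% of windows were called in the genome over the same pairs. They were 2 of 39 in RPS18 (0.0734%), 5 of 99 in SP-ZW10 (5.16%) and 0 of 47 in ZW10 (0.79%). These genome shares are over windows of all levels, and 94.6% to 97.2% of honey bee windows were below 0.2. In CDC5L all calls were in the window at the right end, and in RPS18 1 of the 2 rests mainly on CpGs past the gene. Within 200 bp of an edge, oocyte was below sperm at the right edge of SP-ZW10 and the left edge of ZW10. The same held right of the second stretch of CDC5L, with 0.271 in FL sperm and 0.196 in FL oocyte. Oocyte was above sperm left of the third stretch of CDC5L (0.145 and 0.309). At RPS18 the means were 0.317 in sperm over 3 CpGs and 0.457 in oocyte over 2 CpGs and 12 reads, which are unlike sets. Of the CpGs with a level in both, oocyte was above sperm at 737426 (0.2 and 0) and below it at 737477 (0.714 and 0.952). Of the genome windows above 0.5, 74.3% in sea urchin and 91.3% in sea squirt were lower in oocyte. The depths and the stages differ between species, the pairs of a species share libraries, and no test compared the genes with each other.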

How the data were processed

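Members and lists were chosen with earlier results of these data known. After trimming (Trimmomatic), the authors aligned with Bismark, then dropped duplicates and clipped overlapping mates. The submitters' processing notes also name SAMtools 0.1.19. The authors deposited, per CpG and merged over strands, the count of reads with and without methylation and the level as a fraction. Levels were recomputed from the counts. The labels name 1 replicate for 6 samples and 2 or 3 for the others, pooled into 1 set of counts each, and whether these were separate animals is not always given.

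The coordinates, as printed beside the genes in the study's supplementary picture and counted from 1, were scaffold_122, 354367 to 373393 (CDC5L, ASM20922v1), chromosome 14, 734898 to 740804 (RPS18, GCA_000002195.1), Scaffold240, 10625 to 39794 (SP-ZW10, Spur_3.1), and scaffold_77, 1105645 to 1117999 (ZW10, CSAV2.0). The study's legend names ZW10 or a paralog, so the homology of SP-ZW10 and ZW10 is the study's. The last sea squirt sample is called gastrula, as in its label.

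The level of a gene, window or stretch is the mean over CpGs with at least 5 reads. Intervals are binomial for means and Wilson for single CpGs and pooled shares. Windows of 1000 bp and CpGs were tested over the genome for 26 pairs of libraries by two-sided Fisher exact tests with Benjamini-Hochberg adjustment. The call needed a difference of at least 0.2 and an adjusted p below 0.05. Shares called in the genome are over all tested CpGs or windows, whatever their level. The difference and the minimum of 3 CpGs follow the study's methods for invertebrates, which used DSS with another p threshold. A window belongs to a gene when its middle lies in the gene. Windows are given by their own bounds, and levels by window use CpGs of the gene only, while tests use all CpGs of the window. CpGs named singly by rule are those at edges of stretches, the 3 most changed CpGs in each direction between sperm and oocyte, and CpGs of called windows. Further CpGs were named after their values were seen. They were called in a pair, low outside a stretch, or neighbours of such CpGs. The measures of edges within 200 bp, of closely spaced CpGs, of low CpGs outside stretches and of neighbours were chosen after seeing the data. The tests were also run on simulated data in which the reads of each CpG were drawn independently. Shared reads and differences between animals were not simulated, so those runs do not cover these limits. Calculations used numba 0.67.0, numpy 2.4.6 and pandas 2.3.3 under Python 3.11.15, and figures matplotlib 3.10.9. Alternatives changed the minimum reads, weighting, CpGs, depth, window, difference, p-value and level bound. No sequence is printed, as no genome of these assemblies was used here. Bisulfite reads cannot tell a C-to-T difference in the DNA from an unmethylated cytosine.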

Additional observations from a re-analysis of the deposited data

Results flagged for a closer look

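Values with opposite signs in 2 groups under the same contrast are given here, and none of these differences between groups was tested. In CDC5L, window 371001 to 372000 was higher in cleavage than in sperm by 0.059 over 65 CpGs in Florida. Its difference in Massachusetts was -0.111 over 11 CpGs. From cleavage to blastula its difference was -0.025 over 65 CpGs in Florida and 0.0487 over 8 CpGs in Massachusetts. These signs rest on unlike sets of CpGs. With the closely spaced run left out, both populations had the same sign. From sperm to cleavage the difference was then 0.352 over 10 CpGs in Florida and 0.152 over 5 in Massachusetts. From cleavage to blastula it was -0.209 and -0.0241. CpG 370196 had differences of 0.025 in Florida and -0.224 in Massachusetts from sperm to cleavage, and of -0.0676 and 0.188 from cleavage to blastula. CpG 370323 had 0.154 in Florida and -0.0714 in Massachusetts from cleavage to blastula. In RPS18, the gene had a difference from blastoderm to gastrula of -0.0126 in workers and 0.0172 in drones, and both intervals included 0. Window 739001 to 740000 had -0.0701 in workers and 0.0409 in drones, and window 740001 to 741000 had -0.0649 and 0.0632. CpG 738149 had 0.238 in workers and -0.271 in drones.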

How the results depend on the processing

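No paired analysis was possible because each stage has 1 set of pooled counts. Of the values that answer a comparison under an alternative, 61 stayed within the main call or spread, 20 moved by more than it, 13 were weaker, 6 were stronger and 1 reversed. With a minimum of 1 read, the mean over stages was 0.619 in CDC5L (0.625 as reported), 0.276 in RPS18 (0.29), 0.566 in SP-ZW10 (0.574) and 0.639 in ZW10 (0.671). With a minimum of 10 reads it was 0.61, 0.307, 0.564 and 0.705. With reads pooled over CpGs it was 0.584 in CDC5L, 0.524 in SP-ZW10 and 0.712 in ZW10, and over CpGs with reads in every sample it was 0.669 in CDC5L, 0.389 in RPS18 and 0.724 in ZW10. The difference from sperm to oocyte was 0.0104 in CDC5L over the CpGs of every sample. In RPS18 it was -0.0209 with a minimum of 1 read, -0.456 with 10 reads and -0.385 with reads thinned. In SP-ZW10 it reversed to 0.00764 with a minimum of 1 read. Called windows over all pairs were 5 in CDC5L, 1 in RPS18 and 3 in SP-ZW10 with a minimum of 10 reads, where CDC5L lost its call at 371001 between FL and MA cleavage and gained 3 at 370001, 10, 2 and 8 in 500-bp windows with 2 in ZW10, and 1, 1 and 2 with a difference of at least 0.3. They were 1 in RPS18 and 10 in SP-ZW10 in windows shifted by 500 bp, 1 in RPS18 with reads thinned, 3 in SP-ZW10 with at least 5 CpGs and 5 in CDC5L without the closely spaced run. Called CpGs were 0 in RPS18 and 2 in ZW10 with reads thinned, and 0 in RPS18, 44 in SP-ZW10 and 2 in ZW10 at an adjusted p below 0.01. The genome shares under these settings are not given here. A change in these counts therefore cannot be told apart from an effect of the setting on all windows or CpGs. The stretches of CDC5L, 2606 bp in all, came to 1123 bp with a minimum of 1 read, where the right one was lost, and 1736 bp with levels below 0.1. Fewer CpGs or reads enter the stricter settings, and otherwise the cause was not tested. Depth limits honey bee oocyte most.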
